A study of Mus musculus with 5 samples.

Results

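A set of 9 receptors that steer myeloid cells along chemoattractant gradients was examined in RNA-seq counts from mouse bone marrow cells labelled as monocytes. They are Ccr1, Ccr2, Ccr3, Cx3cr1, Cxcr2, Cxcr3, Ccrl2, Fpr1 and Fpr2, and they were picked by gene symbol, not by level, from 55291 symbols. All 9 were present and all 9 passed the filter on low counts. There were 3 wild-type samples (replicates 1 to 3, here WT1, WT2 and WT3) and 2 Tet2-mutant samples (replicates 2 and 3, here Mut2 and Mut3), where Tet2 encodes a methylcytosine dioxygenase that is often mutated in clonal blood disorders. No treatment, time, age or strain is given for either group, nor the Tet2 allele, the way the cells were isolated, or whether samples came from separate animals, so each p-value speaks only of the spread among these libraries, which may be technical. Each value is in CPM, a gene's count scaled to the size of its library after adjustment by edgeR's TMM method.

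Chemokine receptors are G protein-coupled receptors on the surface of leukocytes. They bind small secreted proteins, the chemokines, and couple mainly to inhibitory G proteins to direct migration. In bone marrow, Ccr2 lets classical monocytes leave for the blood, Cxcr2 drives release of neutrophils, and Cx3cr1 supports survival of patrolling monocytes. Ccr3 is known from eosinophils, Cxcr3 from activated T cells, NK cells and plasmacytoid dendritic cells, and Fpr1 and Fpr2 sense bacterial formyl peptides on phagocytes.

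The libraries held 17459808 to 72414875 counts, and Mut2 was the shallowest. Tet2 was at 10.8 ± 1.07 CPM (SD, n = 3) over the wild type, against 5.31 in Mut2 and 15.6 in Mut3, which does not check the labels because a mutation need not lower its transcript. Mut2 held both Xist (27.4 CPM) and Y-linked transcripts (39.3 CPM summed over 4 genes), whereas each other library was high in only 1 of them. Xist was at 32.3 CPM in WT3 and 21.1 in Mut3, where the Y-linked sums were 0.686 and 3.62 CPM. In WT1 and WT2 Xist was at 0.188 and 0.179 CPM and the Y-linked sums were 170.4 and 194 CPM. Transcripts of 8 pancreatic acinar genes summed to 39.8 to 56.1 CPM in the wild type and to 621 and 1559 CPM in the mutant libraries. Nearly all of the wild-type sum was Cela1, at 37.7 to 52.9 CPM, against 121 in Mut2 and 203 in Mut3. Each other gene on that list was under 1 CPM in every wild-type library. Classical monocyte markers had a sum over 8 genes of 5351 to 6060 CPM in the wild type and 3663 to 7140 CPM in the mutant. Most of it was the single gene Chil3, at 3728 to 4266 CPM over the wild type, 5593 in Mut2 and 2818 in Mut3. Ly6c2 was at 351 to 500 CPM over the wild type, 384 in Mut2 and 165 in Mut3. Neutrophil markers were far higher, with a sum over 11 genes of 42563 to 54719 CPM in the wild type and 23312 to 51980 CPM in the mutant, so the label of monocytes does not describe all of the RNA. In such bulk samples, fewer cells of a type and less RNA per cell cannot be told apart.

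Of the 9 genes 5 lie on chromosome 9 in mm10 (GRCm38), with coordinates from GENCODE M21. Ccr1 (123962124 to 123968692), Ccr3 (124021972 to 124031689) and Ccr2 (124101950 to 124113557) lie in 1 cluster, with gaps of 53279 and 70260 bases and the related gene Ccr1l1 in the first gap. Cx3cr1 (119901616 to 120069879) and Ccrl2 (111054486 to 111057519) lie elsewhere on that chromosome. Fpr1 (17876471 to 17883940) and Fpr2 (17887824 to 17893952) are 3883 bases apart on chromosome 17 and are read in opposite directions. Cxcr2 is on chromosome 1 (74153989 to 74161246) and Cxcr3 on chromosome X (101731535 to 101734269). The annotated spans of Cx3cr1 and of Fpr2 overlap other genes (Fpr2 overlaps Fpr3 on its own strand, and Cx3cr1 3 protein-coding genes of its own strand, Gorasp1, Csrnp1 and Xirp1, and others of the opposite strand, with the strand setting of the counting not given), and the receptors resemble each other, so reads in shared stretches may have been divided in the counting.

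Stretches upstream of the start are shown for the receptors that differed most between the genotypes, Cxcr3 and Ccr3, which rose, and Cxcr2, which had the lowest mutant to wild-type ratio. They come from RefSeq (GRCm38.p6), read 5′ to 3′ on the gene's strand, and stop where an annotated exon begins. Capitals mark matches to any of 7 motifs searched on both strands.
Cxcr3, chrX:101734270-101734397, minus strand: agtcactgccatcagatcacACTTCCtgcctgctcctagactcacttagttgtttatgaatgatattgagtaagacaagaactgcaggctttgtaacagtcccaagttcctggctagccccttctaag
Ccr3, chr9:124021721-124021970, plus strand: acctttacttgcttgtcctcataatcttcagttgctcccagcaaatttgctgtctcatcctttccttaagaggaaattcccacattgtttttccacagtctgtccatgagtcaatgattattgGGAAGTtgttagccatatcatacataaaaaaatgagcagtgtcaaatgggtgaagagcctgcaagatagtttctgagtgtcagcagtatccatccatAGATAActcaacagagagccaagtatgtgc
Cxcr2, chr1:74153744-74153988, plus strand: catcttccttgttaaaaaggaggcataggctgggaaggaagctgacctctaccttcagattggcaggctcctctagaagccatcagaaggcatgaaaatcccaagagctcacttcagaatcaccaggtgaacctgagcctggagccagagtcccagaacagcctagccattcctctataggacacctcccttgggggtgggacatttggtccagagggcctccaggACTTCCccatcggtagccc
Each of the 3 stretches holds the ETS core GGAAGT on 1 of its strands, which 20.0% of 27025 mouse promoters hold in the 250 bases before the start. The GATA motif AGATAA (10.3% of promoters) was found before Ccr3, Ccr2 and Fpr2. The RUNX motif TGTGGT (14.2% of promoters) was found in the 250 bases before the start of Ccr1, Cx3cr1 and Cxcr3, and the GAS motif TTCNNNGAA (7.18%) before Fpr2. Matches to the C/EBP motif TTGCNNAA (9.55%), the interferon response motif (GAAA, any 2 bases, GAAA; 3.04%) and the T-box motif GGTGTGA (3.31%) were found in none of the 9 windows. These counts cover the whole windows, annotated exons included. The RUNX matches of Cx3cr1 and Cxcr3 and the GATA match of Ccr2 lay outside the longest stretch clear of such exons. That stretch was 17 bases for Ccr2, and Cx3cr1 had none. A match is a stretch of letters and not a binding site.

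The receptor for interferon-induced chemokines, Cxcr3, and the eotaxin receptor, Ccr3, rose in the Tet2-mutant libraries. Ccr2 had a higher mean in the mutant and Cxcr2 a lower one, but neither passed the test. Of the 9 receptors 2 were called higher by edgeR (quasi-likelihood F-test, p under 0.05 after Benjamini-Hochberg adjustment over all 17062 tested genes), beside 10.6% of all genes, or 15.0% called in either direction. None was called lower, beside 4.43% of all genes. At an unadjusted p under 0.05 by edgeR 0 receptors were lower, beside 3182 of all 17062 genes. By DESeq2 0 were lower, beside 2137 of all genes. For 4 receptors the genotypes did not overlap (56.2% of all genes), with Cxcr3 and Ccr3 above (22.9% of all genes were above) and Cxcr2 and Fpr1 below (33.3% of all genes were below). The median log2 fold change was 0.34 over the 9 receptors and -0.07 over all genes tested. Receptors called higher numbered 1 without WT2 or WT3, where 870 and 842 of all genes were called higher. Of all called genes 70.5% were higher, against 43.6% with upper-quartile scaling and 29.1% on total counts.

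**Figure D1:**
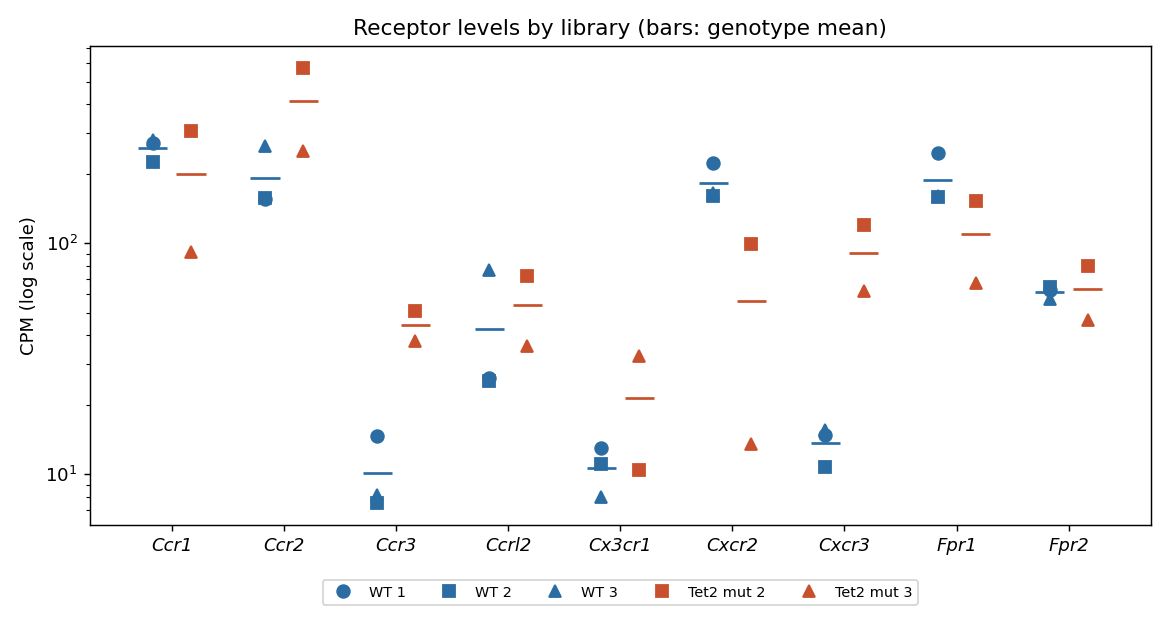
Level of each receptor in CPM (log axis) in each library, with wild-type (WT) libraries in blue, Tet2-mutant libraries in orange, the replicate number given by the marker shape and horizontal bars at the genotype means. Cxcr3 and Ccr3 lie higher in both mutant libraries than in any wild-type library, Cxcr2 and Fpr1 lie lower, and the mutant libraries are far apart for Ccr1, Cxcr2 and Cx3cr1.

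Cxcr3, the receptor for Cxcl9, Cxcl10 and Cxcl11, was at 14.7 CPM in WT1, 10.8 in WT2 and 15.5 in WT3, against 119 in Mut2 and 61.9 in Mut3. Both mutant libraries were above every wild-type library by a wide margin. The log2 fold change was 2.73 ± 0.38 (SE; edgeR adjusted p = 0.007). It ranged from 2.18 to 3.12 with each library left out in turn and passed each time (adjusted p = 0.000351 to 0.0301). With the Xist class of the library as a covariate neither Cxcr3 (2.55, adjusted p = 0.191) nor Ccr3 (2.45, adjusted p = 0.235) passed. Markers of cells known to carry Cxcr3 moved too: 4 of 11 T and NK cell markers rose (10.6% of all genes) and 0 fell (4.43%), and their sum was 262 to 332 CPM in the wild type and 1073 to 1230.5 CPM in the mutant. Cd3g, part of the T cell receptor complex, rose by 4.02 ± 0.29 on the log2 scale (edgeR adjusted p = 0.000848), and Trbc2 and Trac, which encode constant regions of the receptor, rose by 3.61 and 3.95. Markers known from NK cells differed in direction, and none passed. Nkg7, the most abundant gene on the list and shared with cytotoxic T cells, was at 152 to 211 CPM over the wild type, against 237 in Mut2 and 301 in Mut3 (log2 fold change 0.59, adjusted p = 0.132), and Gzma at 1.57 to 6.21 CPM, against 2.93 and 28.3 (adjusted p = 0.21). Klrb1c was at 3.59 to 13 CPM over the wild type, against 1.66 in Mut2 and 1.55 in Mut3, and Ncr1 at 2.35 to 12.6 CPM, against 1.58 and 4.95 (adjusted p = 0.0877 and 0.478). No marker on this list was at 0 in any library. Of 6 plasmacytoid dendritic cell markers 1 rose, Bst2, which is also induced by interferon. The sums were 92.4 to 119.6 CPM in the wild type and 169 to 287 CPM in the mutant. Most of the mutant sums was Bst2 (115 CPM in Mut2, 83.0 in Mut3) and Tcf4 (34.1 and 185, against 32.2 to 41.5 over the wild type, adjusted p = 0.0976). The defining marker Siglech was at 25.0 to 33.5 CPM over the wild type, against 8.64 in Mut2 and 1.16 in Mut3. The part of these cells in the Cxcr3 level was not tested.

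Ccr3, the receptor for the eotaxins Ccl11 and Ccl24, was at 14.6 CPM in WT1, 7.51 in WT2 and 8.10 in WT3, against 50.9 in Mut2 and 37.5 in Mut3. The lowest mutant value exceeded the highest wild-type value by 22.9 CPM. The log2 fold change was 2.13 ± 0.43 (SE; edgeR adjusted p = 0.0242), and Ccr3 no longer passed without WT2 (adjusted p = 0.0679) or WT3 (adjusted p = 0.069). The eosinophil granule genes Prg2 and Epx did not share its direction, while Ear2 and Il5ra on the same list had higher means in the mutant. The major basic protein gene Prg2 was at 310 CPM in WT1, 132 in WT2 and 124 in WT3, against 95.4 in Mut2 and 62.2 in Mut3 (log2 fold change -1.26 ± 0.47, edgeR adjusted p = 0.0975). The eosinophil peroxidase gene Epx went from 8.0 to 34.0 CPM in the wild type to 4.36 and 1.94 CPM in the mutant, and the eosinophil surface lectin Siglecf from 9.65 to 12.1 CPM to 3.01 and 3.75 CPM, and neither passed (adjusted p = 0.0743 and 0.0752). Of 8 eosinophil markers 5 lay below the whole wild-type range in Mut2 and Mut3, against 33.3% of all genes. Ear2, a ribonuclease that patrolling monocytes also express, was the only 1 called, higher by 2.0 ± 0.35 (adjusted p = 0.016), and that call was absent without WT1 (adjusted p = 0.0672) or WT3 (adjusted p = 0.0582). The sum of the 8 markers was 164 to 391 CPM in the wild type and 156 to 178 CPM in the mutant, and none was at 0. Il5ra, a receptor gene on the same list, had a higher mean in the mutant but did not pass (log2 fold change 3.54, edgeR adjusted p = 0.0641). It was at 0.965 to 3.11 CPM over the wild type, against 2.46 in Mut2 and 41.2 in Mut3. Basophils and mast cells can carry Ccr3 as well, and 0 of 5 of their markers were called by edgeR (15.0% of all genes). Their sums were 188 to 304 CPM in the wild type and 220 to 226 CPM in the mutant.

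Ccr2, the receptor for Ccl2, Ccl7 and Ccl12 on classical monocytes, was at 155 CPM in WT1, 156.5 in WT2 and 264 in WT3, against 575 in Mut2 and 251 in Mut3. The groups overlapped, because Mut3 was below WT3. The log2 fold change was 1.10 ± 0.41 (SE; edgeR adjusted p = 0.0975). It was 1.57 without Mut3 and 0.38 without Mut2, in fits with 1 mutant library left. Ccr2 passed with no filter on low counts (edgeR adjusted p = 0.0108). Other classical monocyte markers were not called, 0 of 8 in either direction by edgeR, beside 15.0% of all genes. The surface antigen gene Ly6c2 was at 351 CPM in WT1, 500.3 in WT2 and 409 in WT3, against 384 in Mut2 and 165 in Mut3, while the lectin gene Chil3 was at 3728 to 4266 CPM and at 5593 and 2818 CPM. Of the 8 markers 2 lay above the wild type in both mutant libraries (22.9% of all genes) and 1 below (33.3%). Those above were S100a4, a calcium-binding protein gene (4.09 to 8.98 against 18.7 and 24.3 CPM, adjusted p = 0.0721), and the fibronectin gene Fn1 (59.6 to 81.3 against 103 and 82.2 CPM, adjusted p = 0.234). F13a1, which encodes a subunit of coagulation factor XIII, was below the wild-type range in Mut2 and Mut3 (351 to 436 against 236 and 68.5 CPM, adjusted p = 0.0905).

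Cx3cr1, the fractalkine receptor of patrolling monocytes, was at 13 CPM in WT1, 11 in WT2 and 7.95 in WT3, against 10.5 in Mut2 and 32.5 in Mut3. Only Mut3 stood above the wild type, and Mut2 lay within its range. The log2 fold change was 1.02 ± 0.56 (SE; edgeR adjusted p = 0.208). It was -0.03 without Mut3 and 1.61 without Mut2. Other patrolling monocyte markers lay above the wild type in both mutant libraries for 7 of 10 genes (22.9% of all genes). Of the 10 markers 5 rose (10.6% of all genes) and 0 fell, with sums of 909 to 982 CPM in the wild type and 1768 to 2212 CPM in the mutant. Most of the wild-type sum was Cebpb, at 556 to 635 CPM, against 860 in Mut2 and 739 in Mut3, which was not called (edgeR adjusted p = 0.196). Cd300e, an activating receptor, was at 4.44 to 6.81 CPM over the wild type, against 136 in Mut2 and 247 in Mut3 (log2 fold change 5.18 ± 0.39, adjusted p = 0.000884). Treml4 and Eno3 rose by 4.20 and 2.64 on the log2 scale (adjusted p = 0.00105 and 0.00754), and Eno3 did not pass without WT1 (adjusted p = 0.0551), while 3 markers rose without that library. In Mut2 Cd300e was thus above the wild type while Cx3cr1 was not.

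Cxcr2, the neutrophil receptor for Cxcl1, Cxcl2 and related chemokines, was at 222 CPM in WT1, 161 in WT2 and 165 in WT3, against 99.0 in Mut2 and 13.5 in Mut3. Both mutant libraries were below the wild type, and they differed more from each other than the wild-type libraries did. The log2 fold change was -1.71 ± 0.73 (SE; edgeR adjusted p = 0.13). It was -3.76 without Mut2 and -0.89 without Mut3, where the wild-type spread stood in for that of the lone mutant library. Cxcr2 passed on total counts (-2.34, edgeR adjusted p = 0.0458), a scaling that moved the median of all genes by -0.50. It also passed with no filter (-1.75, adjusted p = 0.00099) and with the replicate number as a block (-2.16, adjusted p = 0.00171).

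The other receptors of neutrophils and phagocytes were also lower in Mut3 than in any wild-type library. Ccr1, which binds Ccl3, Ccl5 and Ccl9, was at 271 CPM in WT1, 224 in WT2 and 281 in WT3, against 306 in Mut2 and 91.5 in Mut3. The groups overlapped, with Mut2 above and Mut3 below the wild type, and the log2 fold change was -0.38 ± 0.47 (edgeR adjusted p = 0.567). It was 0.24 without Mut3 and -1.50 without Mut2. Fpr1, a formyl peptide receptor, was at 245 CPM in WT1, 159 in WT2 and 160.3 in WT3, against 152 in Mut2 and 67.4 in Mut3 (log2 fold change -0.78 ± 0.40, adjusted p = 0.186). Both mutant values were below the wild type, Mut2 by a small margin. The log2 fold change of Fpr1 was -1.48 without Mut2, and Fpr1 passed on total counts (-1.35, edgeR adjusted p = 0.0369). Its neighbour Fpr2, which also binds annexin and amyloid ligands, was at 62.7 CPM in WT1, 64.7 in WT2 and 57.4 in WT3, against 79.9 in Mut2 and 46.4 in Mut3, on either side of the wild-type range. Its log2 fold change was 0.03 ± 0.31 (adjusted p = 0.943), and -0.30 and -0.52 with upper-quartile scaling and total counts.

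Of 11 neutrophil markers 1 fell (4.43% of all genes) and 5 lay below the wild type in both mutant libraries (33.3% of all genes), and none was at 0. Padi4, which citrullinates histones, was at 274 to 431 CPM over the wild type, against 114 in Mut2 and 39.2 in Mut3 (log2 fold change -2.12 ± 0.49, edgeR adjusted p = 0.0362), and it did not pass without WT1 (adjusted p = 0.0957), when 0 markers were called. Ngp, the most abundant marker, was at 16170 to 21720 CPM and at 25515 and 13815 CPM (log2 fold change 0.06, adjusted p = 0.919; -0.29 with upper-quartile scaling). Csf3r, the receptor for granulocyte colony-stimulating factor, was at 303 to 615 CPM over the wild type, against 407 in Mut2 and 76.8 in Mut3. The 11 markers summed to 51980 CPM in Mut2 and 23312 CPM in Mut3, against 42563 to 54719 CPM over the wild type. The part of these markers' cells in the levels of Cxcr2, Ccr1 and Fpr1 was not tested.

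Ccrl2, an atypical receptor that binds chemerin and does not signal in the usual way, was at 26.2 CPM in WT1, 25.4 in WT2 and 76.5 in WT3, against 72.1 in Mut2 and 36.0 in Mut3. WT3 was the highest of all, and the groups overlapped. The log2 fold change was 0.34 ± 0.57 (SE; edgeR adjusted p = 0.676), and its sign turned on total counts (-0.22).

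**Figure D2:**
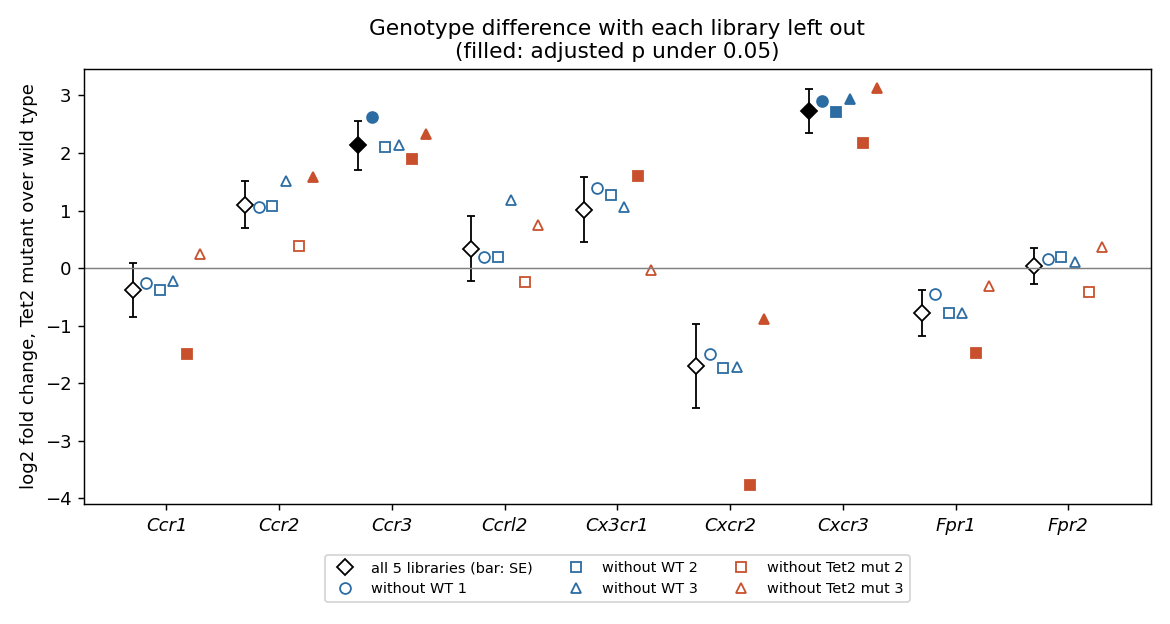
Log2 fold change of Tet2 mutant over wild type for each receptor with all 5 libraries (black diamonds, bars showing the SE) and with each library left out, filled where the edgeR adjusted p was under 0.05. Cxcr3 is filled throughout, while Cxcr2, Ccr1, Ccr2, Fpr1 and Cx3cr1 are filled only where a mutant library was left out. In those fits the spread came from the wild-type libraries alone.

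The make-up of the receptor counts within a library does not depend on scaling between libraries, although shares of a total constrain each other. Ccr2 made up 15.2%, 19.1% and 25.5% of the counts of the 9 receptors in WT1, WT2 and WT3, with 95% Wilson intervals of 14.9 to 15.4, 18.8 to 19.4 and 25.2 to 25.9. In Mut2 and Mut3 its share was 39.2% (38.5 to 39.9) and 39.3% (38.8 to 39.8), so the mutant libraries were alike here although their CPM values were far apart. Cxcr3 went from 1.31% to 1.49% in the wild type to 8.15% (7.77 to 8.56) and 9.71% (9.40 to 10.03) in the mutant. Cxcr2 went from 16% to 21.7% in the wild type to 6.76% (6.41 to 7.13) and 2.11% (1.96 to 2.27) in the mutant. These intervals cover counting error only, since the protocol names no molecular identifiers.

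**Figure D3:**
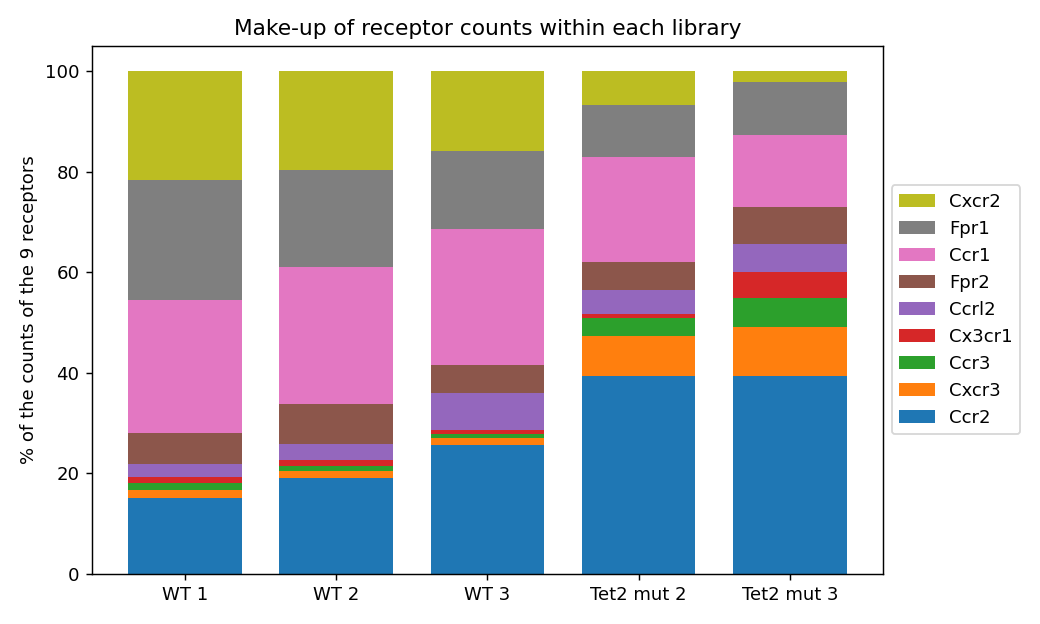
Share of each receptor in the summed counts of the 9 receptors (percent, bars add to 100) in each wild-type (WT) and Tet2-mutant (Tet2 mut) library. The Ccr2 segment is 39.2% and 39.3% in the mutant libraries, above the 15.2% to 25.5% of the wild type, and the Cxcr2 segment at the top is smaller in both.

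The ratio of Cxcr2 to Ccr2 counts, a neutrophil receptor against a monocyte receptor, was 1.43 in WT1, 1.03 in WT2 and 0.625 in WT3, against 0.172 in Mut2 and 0.0537 in Mut3. All mutant values were lower, and the mean log2 ratio differed by -3.34, or 10.1-fold lower (two-sided exact permutation p = 0.1, the smallest that 10 arrangements of these libraries allow). The ratio of Cx3cr1 to Ccr2, a patrolling against a classical monocyte receptor, was 0.0834, 0.0705 and 0.0301 in the wild type and 0.0182 and 0.130 in the mutant. Those mutant values lay on either side of the wild type, and the mean log2 ratio differed by -0.21 (exact permutation p = 0.9), with opposite signs across the libraries left out (-1.63 without Mut3, 1.21 without Mut2).

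Levels of different genes were compared per kilobase of annotated exon. In the wild type the order was Fpr1 (142 ± 37.5 CPM per kb, SD, n = 3), Ccr1 (91.2 ± 10.7), Cxcr2 (60.0 ± 11.3), Fpr2 (47.6 ± 2.91), Ccr2 (28.4 ± 9.27), Ccrl2 (16.4 ± 11.3), Cxcr3 (7.89 ± 1.46), Ccr3 (3.08 ± 1.21) and Cx3cr1 (2.36 ± 0.561). Of neighbours in that order, Ccr2 with Ccrl2 and Ccr3 with Cx3cr1 had overlapping library values, and the others did not. Within each wild-type library, however, Ccr2 was above Ccrl2 (39.1 and 29.5 CPM per kb in WT3). Cx3cr1 (2.45) was above Ccr3 (2.29) in WT2 only. In the mutant Fpr1, Ccr1, Ccr2, Cxcr3 and Fpr2 were at means of 82.9, 70.2, 61.1, 52.4 and 48.7 CPM per kb, and their library values overlapped. Fpr1 was the highest within Mut2 (115) and within Mut3 (50.9). By group means Cx3cr1 was the lowest in both genotypes, but it overlapped Ccr3 in the wild type, and in Mut3 Cxcr2 (4.41 CPM per kb) was below it (7.21).

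Other receptor genes near this chromosome 9 cluster were also measured. Xcr1, a receptor of cross-presenting dendritic cells on the other side of Ccr1, rose by 4.06 ± 0.62 (edgeR adjusted p = 0.0102), and Cxcr6, a receptor of T and NK cells, by 2.11 ± 0.35 (adjusted p = 0.0131). Xcr1 did not pass with any wild-type library left out (adjusted p = 0.0631 to 0.0726), and neither did Cxcr6 without WT1 (adjusted p = 0.0537). Called and uncalled genes thus lay near each other, and no test of position was made.

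Among 32 other chemoattractant receptors, 25 were tested, and 6 rose (10.6% of all genes) and 1 fell (4.43% of all genes). Their median log2 fold change was 0.48. The smallest p was that of Gpr183, an oxysterol receptor of B cells and dendritic cells, which went from 12.1 to 17.3 CPM in the wild type to 169.5 and 259.9 CPM in the mutant (log2 fold change 3.82 ± 0.31, edgeR adjusted p = 0.00108). C5ar1, the complement receptor of neutrophils, was at 307 to 556 CPM over the wild type, against 285 in Mut2 and 96.7 in Mut3, which did not pass (adjusted p = 0.14). The other genes that rose were Xcr1, Cxcr6, Ccr8, Ptgdr2 and Cxcr5. Of these, Ccr8 did not pass without WT1 (adjusted p = 0.0781), Cxcr5 without WT1 or WT2 (adjusted p = 0.0769 and 0.0558) and Ptgdr2 without WT3 (adjusted p = 0.0706). Ptgdr2 rested on 1, 1 and 2 counts in the wild type against 3 in Mut2 and 173 in Mut3, and without WT1, WT2 or Mut3 it fell below the filter and was not tested. Rises numbered 1 without WT1, 3 without WT2 and 4 without WT3. The fall was that of Cxcr1, the second interleukin-8 receptor gene (edgeR adjusted p = 0.0487), which was near the floor throughout. It was at 0.294 to 1.37 CPM over the wild type, against 0 in Mut2 and 0.0185 in Mut3. Its counts were 29, 115 and 18 in WT1, WT2 and WT3, against 0 and 1. The call did not hold without WT1, WT2, WT3 or Mut3. No fall was called when a wild-type library was left out.

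Among chemokines and other ligands of these receptors, many were higher in the mutant. Of 20 tested ligands 10 rose and 0 fell, with a median log2 fold change of 1.76, beside 10.6% of all genes called higher. With a filter of 1 CPM in 3 libraries the rises numbered 6. The Cxcr3 ligands Cxcl9 and Cxcl10 were among the 10. So was Cxcl11, but it passed the filter on low counts only through the mutant libraries, so its call could hardly be a fall. Cxcl9 was at 1.5 to 1.91 CPM over the wild type, against 164 in Mut2 and 52.0 in Mut3, Cxcl10 at 2.12 to 3.21 CPM and at 111 and 27.7 CPM, and Cxcl11 at 0.0119 to 0.0490 CPM and at 0.238 and 2.40 CPM (3, 1 and 3 counts against 3 and 130). Cxcl9 and Cxcl10 were higher in Mut2, as was Cxcr3, and Cxcl11 in Mut3. The Cxcl9 and Cxcl10 calls held with each library left out, and that of Cxcl11 was lost without WT3 (adjusted p = 0.0816) and could not be tested without WT1, WT2 or Mut3, when it fell below the filter.

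Of the ligands of Ccr2, Ccl7 and Ccl12 rose by 4.65 and 6.14 on the log2 scale (edgeR adjusted p = 0.0274 and 0.00985) from wild-type levels under 1 CPM, while Ccl2 was at 16.4 CPM in WT1, 14.1 in WT2 and 20.4 in WT3, against 33.3 in Mut2 and 11.3 in Mut3 (adjusted p = 0.594). Of the Ccr1 and Ccr3 ligands, Ccl9 went from 102 to 124 CPM to 378 and 325 CPM (adjusted p = 0.00774), and Ccl5 from 6.73 to 7.09 CPM to 16.9 and 107 CPM (adjusted p = 0.03). The eotaxin gene Ccl24 rose by 4.24 (adjusted p = 0.0445), but on low counts. It had 7, 11 and 16 counts in WT1, WT2 and WT3, against 8 in Mut2 and 294 in Mut3. Ccl8, a monocyte chemoattractant, rose by 3.55 (adjusted p = 0.0409). Cxcr2 ligands were divided. The platelet chemokine gene Ppbp rose from 21.1 to 34.3 CPM to 95.9 and 98.2 CPM (adjusted p = 0.0133), and Cxcl2 was at 119.9 CPM in WT1, 171 in WT2 and 186 in WT3, against 90.5 in Mut2 and 7.94 in Mut3, where the order of the mutant libraries was that of Cxcr2 itself (adjusted p = 0.177). The fractalkine gene Cx3cl1 and the chemerin gene Rarres2 were under 1 CPM in every library, and the Fpr2 ligand Anxa1 was at 3262 to 4968 CPM and at 4936 and 2193 CPM. The ligands called higher numbered 1 with the Xist class as a covariate, 3 without WT1, 5 without WT2 and 6 without WT3. Ccl5, Ccl7 and Ccl24 were each not called with any wild-type library left out (adjusted p = 0.0581 to 0.174), and Ccl24 also not without Mut3 (adjusted p = 0.113). Ccl8 was not called without WT1 and WT2 (adjusted p = 0.107 and 0.0813), nor Ccl12 and Ppbp without WT1 (adjusted p = 0.0672 and 0.0562).

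**Figure D4:**
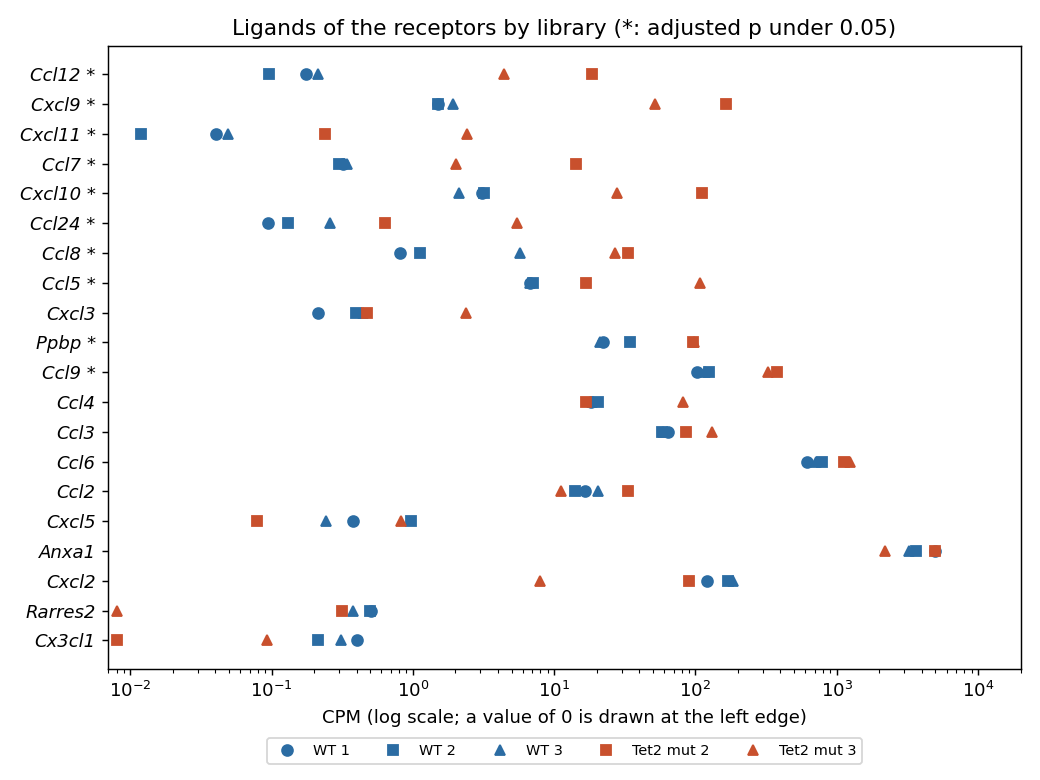
Level of each tested ligand in CPM (log axis, values of 0 drawn at the left edge) in each library, with wild-type (WT) libraries in blue and Tet2-mutant libraries in orange, and an asterisk at ligands with an adjusted p under 0.05. There are 10 ligands with the asterisk, all to the right in the mutant, and the lowest point of Cxcl2 is Mut3 at 7.94 CPM.

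Markers of macrophages, dendritic cells and B cells were higher as well. Of 8 macrophage markers 7 rose (10.6% of all genes), led by the complement genes C1qb, C1qa and C1qc (log2 fold changes 4.69, 3.94 and 4.57), with sums of 246 to 319 CPM in the wild type and 3133 to 4264 CPM in the mutant, and of 6 conventional dendritic cell markers 3 rose (Batf3, Cd209a and Itgax), with sums of 61.2 to 80.9 and 667 to 716 CPM. Of 5 B cell markers 3 rose (Cd79a, Cd79b and Ms4a1), with sums of 127 to 562 CPM and of 903 and 7008 CPM. Without WT1, WT3 or Mut3 none of those B cell genes passed (adjusted p = 0.0520 to 0.204). Of 5 erythroid markers 0 were called by edgeR (15.0% of all genes), with sums of 5074 to 13537 and 1837 to 12028 CPM. The part of these cells in the ligand and receptor levels was not tested.

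Of 27 genes for signalling components shared by the receptors, 4 rose (10.6% of all genes) and 2 fell (4.43% of all genes), with a median log2 fold change of 0.33. Grk3, a kinase that desensitises receptors, went from 13.3 to 15.5 CPM to 96.9 and 71.9 CPM (log2 fold change 2.58 ± 0.30, edgeR adjusted p = 0.00371). Gnb1, a G protein subunit, rose by 0.85 (adjusted p = 0.0495) and did not pass with any wild-type library left out (adjusted p = 0.0813 to 0.0954). Rgs2 and Rgs1, which shorten G protein signals, rose by 1.58 and 1.89 (adjusted p = 0.00849 and 0.0225), although Rgs1 did not pass with any wild-type library left out (adjusted p = 0.0611 to 0.0774). The members that fell were Arrb1, an arrestin, and Pik3cg, the catalytic subunit of a phosphoinositide kinase downstream of these receptors (log2 fold changes -1.14 and -1.60, adjusted p = 0.0487 and 0.0451), and neither passed in any fit without 1 wild-type library. The rises numbered 2 without WT2 or WT3.

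For the 3 receptors that mark the main myeloid classes, the genes with the most similar layout over the 5 libraries were sought by the root mean square distance of gene-centred log2 CPM among 8596 genes. Closest to Cxcr2 were Vegfa, Rab44 and Crispld2, at distances of 0.10, 0.13 and 0.13. Closest to Ccr2 were Rfx2, Cd14 and Fbxl15, at 0.13, 0.16 and 0.17, with the endotoxin co-receptor gene Cd14 at 79.1 to 134 CPM over the wild type, against 254 in Mut2 and 149.5 in Mut3. Closest to Cx3cr1 were Mef2c, Swap70 and Septin1, at 0.10, 0.13 and 0.13, and Mef2c, a transcription factor, was at 25.1 to 39.3 CPM over the wild type, against 30.3 in Mut2 and 112 in Mut3. Over 5 libraries in 2 groups, such likeness is a description of these libraries.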

How the data were processed

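The authors deposited 1 table of raw read counts per gene symbol for each of 5 libraries. Per the labels' protocols, libraries were made with a SMARTer mRNA-Seq kit from total RNA, and Trimmomatic, STAR and mm10 are named in the submitters' processing notes. Versions, the counter, its annotation and strand setting were not given in the sources used here. Work on the counts used R 4.3.3 and edgeR 4.0.16. Genes were kept by filterByExpr (17062), libraries were scaled by TMM, and genotypes were compared by the quasi-likelihood F-test (Benjamini-Hochberg over every tested gene). SEs were taken as the size of the log2 fold change over the root of F. Alternatives were DESeq2 1.42.0, other scalings and filters, the replicate number as a block, the Xist class of the library (over 10 CPM or not) as a covariate, and each library left out. The test was tried on simulated counts with known folds.

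The receptors, gene lists and cell type markers were chosen with earlier results of these data known. Named genes were the 9 receptors, up to 3 called list genes with the smallest p (up to 2 genes where none was called) and the most abundant marker of a list, the 3 nearest genes to Ccr2, Cx3cr1 and Cxcr2 (mean of 10 CPM or more, pseudocount 0.5) and chromosomal neighbours. The others, Cxcl11, Ccl12, Ccl7, Ccl5, Ccl8, Ccl24, Ppbp, Cxcl2, Ccl2, Cx3cl1, Rarres2, Anxa1, Cxcr1, Ccr8, Ptgdr2, Cxcr5, Gnb1, C5ar1, Epx, Siglecf, Il5ra, Siglech, Cd3d, Cd3e, Cd4, Cd8a, Klrb1c, Ncr1, Gzma, Fn1, Ly6c2, Cela1, Arrb1, Pik3cg and Csf3r, were chosen after their values were seen. Exon lengths are unions of GENCODE M21 exons. A further gene of the receptor list is not reported here.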

Additional observations from a re-analysis of the deposited data

How the results depend on the processing

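With 3 and 2 libraries the wide spread between the mutant libraries limits what can be called. Of the 9 receptors, 2 were called higher and 0 lower. With a wild-type library left out these counts were 2 higher without WT1 and 1 higher without WT2 or WT3, with 0 lower each time. None was higher (0) with the Xist class as a covariate, where Cxcr3 was at 2.55 (edgeR adjusted p = 0.191) and Ccr3 at 2.45 (adjusted p = 0.235). Both mutant libraries were in the high Xist class, so that only WT3 stood for the wild type within it. Lower calls numbered 1 with the replicate block and with no filter, and 2 on total counts.

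Over all genes 2556 were called, 1801 or 70.5% of them higher. Called and higher genes numbered 4058 and 1181 on total counts (29.1% higher), 5109 and 2972 by DESeq2, 4557 and 3059 with no filter, 984 and 752 with the replicate block, 101 and 101 with the Xist class, and 622 to 10862 and 616 to 4904 with a library left out. Upper-quartile scaling gave 43.6% higher and shifted the all-gene median by -0.27.

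Ligands called higher (10) numbered 6 with a filter of 1 CPM in 3 libraries, 6 with the replicate block, 1 with the Xist class and 3 to 14 with a library left out. Other chemoattractant receptors called higher (6) numbered 10 by DESeq2, 11 with no filter, 1 with the Xist class and 1 to 13 with a library left out. Those called lower (1) numbered 4 with upper-quartile scaling, 5 on total counts, 3 by DESeq2, 4 with no filter, 0 with the 1 CPM filter, 0 with the Xist class and 0 to 6 with a library left out. Signalling genes called higher (4) numbered 0 with the Xist class and 2 to 9 with a library left out, and those called lower (2) numbered 1 with DESeq2 size factors, 7 on total counts, 4 with no filter, 0 with the replicate block, 0 with the Xist class and 0 to 7 with a library left out.

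Signs that turned belonged to differences that had not passed. Ccrl2 turned to -0.0042 with upper-quartile scaling, -0.22 on total counts, -0.50 with the Xist class, and ranged from -0.25 to 1.18 with a library left out. Fpr2 turned to -0.30 and -0.52 with those scalings, -0.032 with the 1 CPM filter and -0.0023 with the replicate block, and ranged from -0.41 to 0.37. With a library left out Ccr1 ranged from -1.50 to 0.24 and Cx3cr1 from -0.032 to 1.61. Chil3 turned to -0.27 with upper-quartile scaling, -0.49 on total counts, and ranged from -0.50 to 0.48. Ngp turned to -0.29, -0.51 and, with the 1 CPM filter, -0.010, and ranged from -0.45 to 0.43. Cebpb turned to -0.085 on total counts and Ccl2 to -0.20, with a range from -0.59 to 0.96. Anxa1 turned to 0.13 with the Xist class and ranged from -0.86 to 0.31. Ncr1 turned to 0.49 with the Xist class and ranged from -1.99 to 0.29, and Tcf4, a plasmacytoid dendritic cell marker, from -0.074 to 2.37. Fn1 turned to -0.069 on total counts, and Gzma ranged from -0.66 to 2.61 with a library left out. The Cx3cr1 to Ccr2 log2 ratio, -0.21, was 0.64 on pooled counts and -1.63 to 1.21 with a library left out. For each of these results the cause was not tested.

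Replicate numbers 2 and 3 occur in both genotypes, but nothing in the labels ties samples of a number together. Deviations from the genotype means correlated at -0.07 for number 2 and -0.08 for number 3, and with 2 mutant libraries such values mirror each other by construction. With the replicate block Cxcr3 (2.74, adjusted p = 0.00118) and Ccr3 (2.49, adjusted p = 0.038) were still called.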
